A study of Mus musculus with 8 samples.

Results

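The PDZ-LIM and LIM-only muscle genes described here are 9 of the 47643 genes in a table of mouse quadriceps RNA. They are 7 PDZ-LIM genes (Pdlim1, Pdlim2, Pdlim3, Pdlim4, Pdlim5, Pdlim7 and Ldb3) and 2 LIM-only genes of the FHL family (Fhl1 and Fhl3). They were chosen by gene name, and the list was drawn up with the genotype differences of these same libraries already known. The differences of the 9 genes between genotypes are therefore given as a description, and no p-value is given for them. Quadriceps muscles of 4 Nup210-/- and 4 Nup210+/+ mice, all labelled C57BL/6 and, by the study's methods, backcrossed to C57BL/6J, were sequenced, with 1 library per mouse and no treatment. Nup210 codes for a transmembrane nucleoporin, a protein of the nuclear pore. In the Nup210-/- line, Hprt-Cre recombined the loxP-flanked exon 2 of the gene, so that the deletion is constitutive and not limited to muscle. The labels of these libraries give no age and no sex.

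Each PDZ-LIM protein carries a PDZ domain near its start and LIM domains towards its end. The PDZ domain of several of these proteins binds alpha-actinin, the actin cross-linker of the Z-disc, where neighbouring sarcomeres of a muscle fiber are joined. The LIM domains, which are zinc-binding modules, recruit kinases and other partners. Pdlim1, Pdlim2, Pdlim3 and Pdlim4 form the ALP group, with a single LIM domain, and Pdlim5, Pdlim7 and Ldb3 form the enigma group, with several. FHL proteins consist of LIM domains alone and are found at sarcomeres and in the nucleus of muscle cells. In people, mutations of LDB3 cause cardiomyopathy and myofibrillar myopathy, and mutations of FHL1 cause X-linked myopathies.

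Promoter sequences of the genes are shown because several muscle regulators bind short motifs in such regions. RefSeq windows of 250 bases before to 50 bases after an annotated start, on GRCm38.p6, matched 8 of the 9 genes with 11 windows (Pdlim5, Ldb3 and Fhl1 have 2 each). Pdlim2 had no match. The 250 bases upstream of the start are printed 5' to 3' for Pdlim3, Ldb3 and Fhl1. Of the 9 genes, Pdlim3 had the largest log2 difference between genotypes after libraries were scaled to a common median ratio. Ldb3 and Fhl1 had the highest levels. Pdlim3 is on the plus strand at chr8:45885237-45885486, Ldb3 on the minus strand at chr14:34588682-34588931, and Fhl1 on the plus strand at chrX:56779433-56779682. Capitals mark matches to the CArG box bound by Srf, the E-box CANNTG bound by myogenic factors, and the MCAT motif CATTCC bound by TEAD factors, on either strand.
Pdlim3: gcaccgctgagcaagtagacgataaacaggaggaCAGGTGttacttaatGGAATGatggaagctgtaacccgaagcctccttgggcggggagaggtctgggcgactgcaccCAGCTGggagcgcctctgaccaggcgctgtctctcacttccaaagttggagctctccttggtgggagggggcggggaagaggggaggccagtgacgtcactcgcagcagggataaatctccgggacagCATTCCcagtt
Ldb3: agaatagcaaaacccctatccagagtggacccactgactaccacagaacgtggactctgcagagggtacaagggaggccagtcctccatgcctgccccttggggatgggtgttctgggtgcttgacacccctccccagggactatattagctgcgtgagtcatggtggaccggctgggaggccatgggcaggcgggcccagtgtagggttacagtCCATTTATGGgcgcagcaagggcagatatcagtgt
Fhl1: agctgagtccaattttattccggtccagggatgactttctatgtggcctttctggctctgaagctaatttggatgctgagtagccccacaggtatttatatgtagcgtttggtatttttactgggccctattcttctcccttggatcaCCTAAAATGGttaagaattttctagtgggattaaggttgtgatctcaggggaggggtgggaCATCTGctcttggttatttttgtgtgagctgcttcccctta

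The Pdlim3 sequence held an E-box at -216 and another at -139, and MCAT matches at -201 (on the opposite strand, written GGAATG) and -11, counted from the RefSeq start. The GENCODE annotation places the start of Pdlim3 at 45885461, so the match at -11 lies within its first exon there. The Ldb3 sequence held 1 CArG box, CCATTTATGG, at -35. A second, overlapping Ldb3 window, whose start lies further downstream, contains the same box at -109. The first Fhl1 window held the CArG box CCTAAAATGG at -102 and an E-box at -41. None of the printed matches overlapped another. A CArG box was found in 3 of the 11 windows of the 9 genes and in 1.63% of all 32851 windows. An MCAT motif was found in 1 of the 11 and in 14.7% of all windows. An E-box was found in 4 of the 11 and in 72.3% of all, and the MEF2 consensus in 0 of the 11 and in 3.19% of all. These matches describe letters in a window and no binding was measured.

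Values are TPM (transcripts per a fixed library total), in which a gene's estimate is divided by transcript length, so that levels of different genes can be set side by side. The table held no read counts, so that depth is unknown and the error of a value is that among the 4 animals of each genotype. The libraries had 18185 to 19357 genes above 0, and their 10 highest genes took 28.1 to 32.0% of all TPM. All 8 fast-fiber markers were above 0 in every library. Their sum was 107462 to 115719 TPM in Nup210-/- and 100084 to 107673 TPM in Nup210+/+ libraries, with a narrow overlap. All 8 slow-fiber markers were also above 0 in every library, with a sum of 1120.15 to 2165.11 TPM. The sums of 5 smooth muscle and 6 endothelial markers were 75.61 to 95.11 and 78.10 to 97.35 TPM, and both overlapped between genotypes. Nup210 mRNA was 8.81 to 11.93 TPM in the libraries labelled Nup210-/- and 5.71 to 10.11 TPM in those labelled Nup210+/+. These gene-level values do not show whether exon 2 was present, so every direction below rests on the labels. Nup210+/+ replicate 2 stood apart, since 6 markers of granulocyte precursors summed to 381.69 TPM there and to 0.31 to 2.12 TPM in the other libraries.

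All 9 genes were detected in every library and all passed the filter of a mean of at least 0.5 TPM. Their mean levels over the 8 libraries spanned from 5.96 TPM for Pdlim4 to 961 TPM for Ldb3. Between them, from high to low, stood Fhl1 (835 TPM), Pdlim5 (400.2 TPM), Pdlim3 (350.0 TPM), Pdlim7 (255 TPM), Fhl3 (109 TPM), Pdlim1 (94.8 TPM) and Pdlim2 (6.88 TPM). The gaps wider than the spread of the libraries were those between Fhl1 and Pdlim5, between Pdlim7 and Fhl3, and between Pdlim1 and Pdlim2. Pdlim1 exceeded Pdlim2 by 10.7 to 18.7 times within a library, the widest of these gaps. The ranges of all other neighbours in the order overlapped. Ldb3 nevertheless exceeded Fhl1 in 8 of 8 libraries, by 1.02 to 1.27 times, and Pdlim3 exceeded Pdlim7 in 8 of 8, by 1.13 to 1.70 times. Pdlim5 exceeded Pdlim3 in 7 of 8 libraries, the exception being Nup210-/- replicate 3, with a ratio of 0.903.

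**Figure D1:**
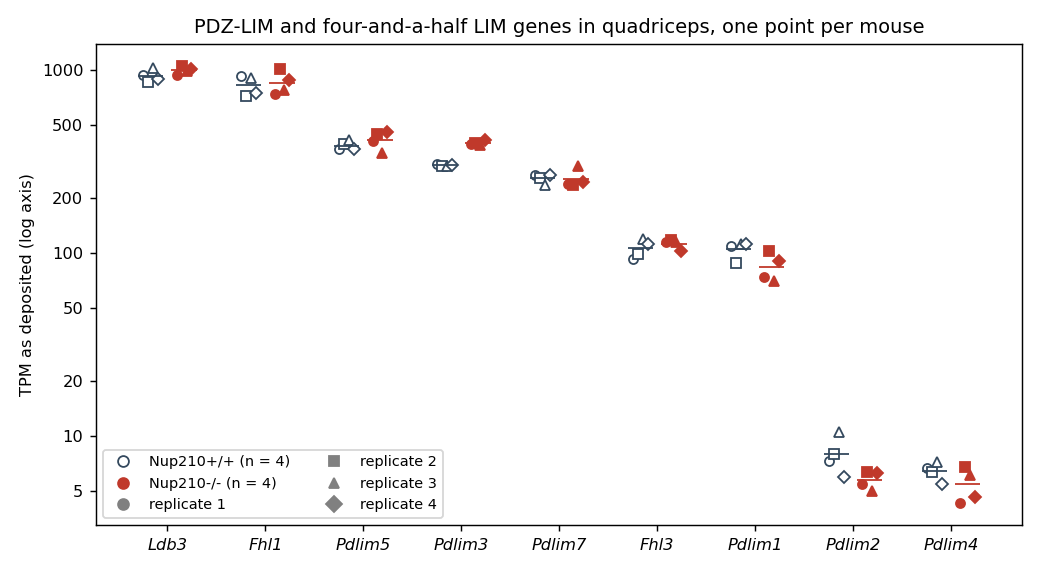
TPM of the 9 genes in each library, on a log axis, with Nup210+/+ libraries as open symbols, Nup210-/- libraries as filled symbols, symbol shapes for replicates 1 to 4 and lines for group means (n = 4 each). The symbols of Pdlim3 form 2 separate clusters, 297.68 to 306.10 TPM and 390.34 to 411.21 TPM, whereas those of every other gene overlap between genotypes.

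Among the ALP group, Pdlim3 codes for ALP, which binds alpha-actinin and strengthens its cross-linking of actin filaments. The gene spans 45885461 to 45919548 on the plus strand of chromosome 8 (GRCm38) with 9 exons, and the deposited table lists 1 transcript for it. Pdlim3 was 393.75, 399.34, 390.34 and 411.21 TPM in Nup210-/- replicates 1 to 4, averaging 399 ± 9.15 (SD, n = 4). It was 306.10, 297.68, 298.15 and 303.63 TPM in Nup210+/+ replicates 1 to 4, averaging 301 ± 4.14 (SD, n = 4). Every Nup210-/- library was above every Nup210+/+ library, both as deposited and after libraries were scaled to a common median ratio (388.80 to 439.47 against 265.52 to 318.24 scaled TPM). On the log2(scaled TPM + 1) scale the difference was 0.50 with a standard error of 0.0687, a fold of 1.41, and with TPM as deposited it was 0.40. Leaving out 1 library at a time gave 0.45 to 0.54, with 0.49 without Nup210+/+ replicate 2, the library with granulocyte precursor markers.

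Pdlim1, which codes for CLP36, an adaptor between alpha-actinin and the kinase Stk35, was 73.50, 102.79, 70.40 and 89.96 TPM in Nup210-/- replicates 1 to 4. It was 109.62, 88.18, 112.52 and 111.62 TPM in Nup210+/+ replicates 1 to 4. The means were 84.2 ± 15.1 and 105 ± 11.6 TPM (SD, n = 4 each), and the groups overlapped because Nup210+/+ replicate 2 lay below Nup210-/- replicates 2 and 4. The log2 difference was -0.24 (standard error 0.139) with all libraries and -0.32 without Nup210+/+ replicate 2. On the scaled log2 values Pdlim1 varied more within genotypes than 91.1% of the 1792 genes with a mean of at least 50 TPM, against 29.5% for Pdlim3.

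Pdlim2 and Pdlim4 were near the lower end of the order. Pdlim2 codes for a protein that promotes degradation of the transcription factors p65 and Stat4 in immune cells. It was 5.46, 6.36, 5.05 and 6.34 TPM in Nup210-/- replicates 1 to 4 and 7.33, 7.97, 10.54 and 5.98 TPM in Nup210+/+ replicates 1 to 4. In Nup210+/+ replicates 1 to 3 Pdlim2 was above all Nup210-/- libraries, and in replicate 4 it was not. The log2 difference was -0.29 (standard error 0.127). Levels of 6 fibroblast markers, all above 0 in every library, moved with Pdlim2 in part. Their sum was 653.24 to 775.46 TPM in Nup210-/- libraries and 823.13 to 1323.65 TPM in Nup210+/+ libraries, with the highest sum in Nup210+/+ replicate 3, where Pdlim2 was highest, and the lowest Nup210+/+ sum in replicate 4. Of these 6 markers, 6 had lower estimates in Nup210-/- libraries and 0 passed the test (limma adjusted p of 0.05), with 5 at an unadjusted p under 0.05, a level reached by 14.2% of all genes tested (2017 of 14229). The 8 leukocyte markers, also above 0 in every library, summed to 34.28 to 38.81 TPM in Nup210-/- and 39.29 to 108.41 TPM in Nup210+/+ libraries. The highest sum was in Nup210+/+ replicate 2, the library with granulocyte precursor markers. Of the 8 markers, 8 had lower estimates and 1 was past the test, beside 0.112% of all genes. At an unadjusted p under 0.05 in limma there were 6, beside 14.2% of all genes. The part of these cells in the Pdlim2 values was not tested. Both sums separated the genotypes, as Pdlim3 did, but the leukocyte sum only narrowly (38.81 TPM in Nup210-/- replicate 2 and 39.29 TPM in Nup210+/+ replicate 4). The part of these markers in the Pdlim3 difference was not tested either. In bulk RNA, fewer cells of a type and less RNA per cell cannot be told apart. Pdlim4, whose protein RIL brings the phosphatase Ptpn13 to the kinase Src, was 5.47 ± 1.17 TPM in Nup210-/- and 6.45 ± 0.735 TPM in Nup210+/+ libraries (SD, n = 4 each). The groups overlapped between 5.51 and 6.77 TPM, with a log2 difference of -0.14 (standard error 0.117).

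In the enigma group, Ldb3 codes for ZASP, also called Cypher, which links alpha-actinin at the Z-disc to protein kinase C. Ldb3 was 936.63, 1049.83, 982.55 and 1002.87 TPM in Nup210-/- replicates 1 to 4, averaging 993 ± 47.0 (SD, n = 4). In Nup210+/+ replicates 1 to 4 it was 941.56, 858.41, 1027.38 and 885.12 TPM, averaging 928 ± 74.7 (SD, n = 4). The genotypes overlapped in the deposited TPM, where Nup210+/+ replicate 3 was above 3 of the Nup210-/- libraries, and did not overlap after scaling (978.67 to 1071.79 against 828.45 to 927.73 scaled TPM). The separation of Ldb3 thus rested on the scaling factors, which ran from 0.936 to 1.12, with the highest in Nup210+/+ replicate 3. The log2 difference was 0.19 (standard error 0.0623), and 0.10 with TPM as deposited. On the scaled log2 values Ldb3 had the smallest spread within genotypes of the 9 genes, smaller than all but 14.6% of the 1792 genes. In deposited TPM that gene was Pdlim3, whose coefficient of variation was 2.3% in Nup210-/- and 1.37% in Nup210+/+ libraries, against 4.73% and 8.05% for Ldb3.

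Pdlim5 codes for ENH, which binds protein kinase C isoforms and the transcriptional inhibitor Id2. It was 406.67, 444.52, 352.59 and 454.81 TPM in Nup210-/- replicates 1 to 4 and 367.79, 390.94, 415.58 and 368.77 TPM in Nup210+/+ replicates 1 to 4. The means were 415 ± 46.3 and 386 ± 22.6 TPM (SD, n = 4 each), the lowest and the highest values were both in Nup210-/- libraries, and the log2 difference was 0.19 (standard error 0.0941). Pdlim7 codes for enigma, which binds the insulin receptor and the receptor kinase Ret through its LIM domains. Its exons overlap the microRNA gene Mir6945 on the same strand. Pdlim7 was 236.87, 234.35, 298.21 and 243.49 TPM in Nup210-/- and 264.90, 257.27, 235.66 and 268.06 TPM in Nup210+/+ replicates 1 to 4. Replicate 3 was the highest of the Nup210-/- and the lowest of the Nup210+/+ libraries, and the groups overlapped throughout. The direction of Pdlim7 depended on the settings, with a log2 difference of 0.07 (standard error 0.10), of -0.02 with TPM as deposited and of -0.01 without Nup210+/+ replicate 3. In Nup210-/- replicate 3, Pdlim5 was at its lowest and Pdlim7 at its highest, and this library also had the highest fast-fiber sum, 115719 TPM. The lowest fast-fiber sum, 100084 TPM, was in Nup210+/+ replicate 3, where Pdlim7 was next to lowest. Other libraries went the other way. Nup210-/- replicates 1 and 4 had sums of 109969 and 110388 TPM, with Pdlim7 at 236.87 and 243.49 TPM. Nup210+/+ replicates 1 and 2 had lower sums, 104846 and 104883 TPM, with Pdlim7 higher, at 264.90 and 257.27 TPM. Of the 8 fast-fiber markers, 8 had higher estimates in Nup210-/- libraries, 0 passed the test (limma adjusted p of 0.05) and 3 were at an unadjusted p under 0.05, beside 14.2% of all genes. The part of fast fibers in the Pdlim3, Pdlim5 and Pdlim7 values was not tested.

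Of the LIM-only genes, Fhl1 codes for the most abundant FHL protein of skeletal muscle, and the gene lies on chromosome X, from 56731787 to 56793346. Fhl1 was 738.35, 1011.86, 770.96 and 877.40 TPM in Nup210-/- replicates 1 to 4 (850 ± 123, SD, n = 4) and 918.68, 720.32, 895.86 and 748.25 TPM in Nup210+/+ replicates 1 to 4 (821 ± 101, SD, n = 4). The range of the Nup210+/+ libraries lay almost wholly within that of the Nup210-/- libraries, and the log2 difference was 0.14 (standard error 0.112). Fhl3 codes for a FHL protein of skeletal muscle that also acts as a transcriptional cofactor. It was 114.69, 117.51, 114.69 and 102.25 TPM in Nup210-/- (112 ± 6.82, SD, n = 4) and 93.26, 98.98, 119.39 and 111.67 TPM in Nup210+/+ libraries (106 ± 11.9, SD, n = 4). The highest Fhl3 value was in a Nup210+/+ library, and the log2 difference was 0.18 (standard error 0.0831).

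Of the 9 genes, 6 estimates were higher in Nup210-/- libraries and 3, the 3 other ALP-group genes Pdlim1, Pdlim2 and Pdlim4, were lower. The median log2 difference was 0.14, beside -0.01 for all 14229 genes tested. In the limma fit across the whole table, with Benjamini-Hochberg adjustment, 1 of the 9 genes, Pdlim3, was past the threshold of 0.05, beside 0.112% of all genes (16 of 14229). Nothing is read from this count, because the list was selected on the same contrast. Pdlim3 stood just inside the threshold and was past it in 1 of the 8 fits that left out a library, the one without Nup210+/+ replicate 4. On scaled TPM, 2 of the 9 genes, Pdlim3 and Ldb3, had genotypes that did not overlap, beside 9.38% of all genes tested.

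**Figure D2:**
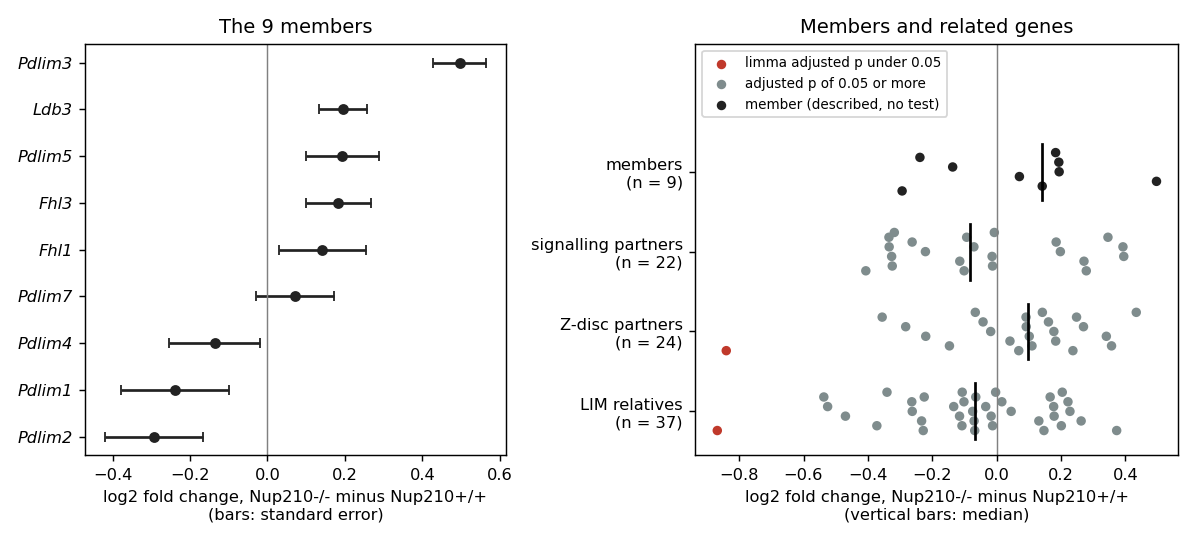
Left, log2 fold change of each of the 9 genes (points) with its standard error (bars), n = 4 Nup210-/- and 4 Nup210+/+ libraries, from -0.29 for Pdlim2 to 0.50 for Pdlim3. Right, the same 9 genes (black) with the tested genes of 3 related lists, where vertical bars are list medians and red points, Xirp1 at -0.84 and Mical1 at -0.87, had a limma adjusted p under 0.05.

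The composition of the PDZ-LIM transcripts was described as the share of each gene in their summed TPM, a measure that does not depend on library scaling. The sum of the 7 genes was 2057.20, 2243.96, 2105.25 and 2213.34 TPM in Nup210-/- replicates 1 to 4 and 2003.98, 1906.80, 2107.10 and 1948.69 TPM in Nup210+/+ replicates 1 to 4, with overlap. Ldb3 held the largest share, 45.0 to 48.8% in every library, with 46.1 ± 0.762% in Nup210-/- and 46.5 ± 1.70% in Nup210+/+ libraries (SD, n = 4 each). Pdlim3 made up 19.1, 17.8, 18.5 and 18.6% in Nup210-/- replicates 1 to 4 and 15.3, 15.6, 14.1 and 15.6% in Nup210+/+ replicates 1 to 4. The Pdlim3 shares of the genotypes did not overlap, as with its TPM. Pdlim5 held 16.7 to 20.5% in Nup210-/- and 18.4 to 20.5% in Nup210+/+ libraries, and Pdlim7 held 10.4 to 14.2% and 11.2 to 13.8%, so that both overlapped. Pdlim1 held 3.34 to 4.58% in Nup210-/- and 4.62 to 5.73% in Nup210+/+ libraries, a separation by a narrow margin that its TPM did not show. Pdlim2 likewise held 0.240 to 0.286% and 0.307 to 0.50%. A share falls when another gene's share grows, so these differences are not independent of that of Pdlim3.

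**Figure D3:**
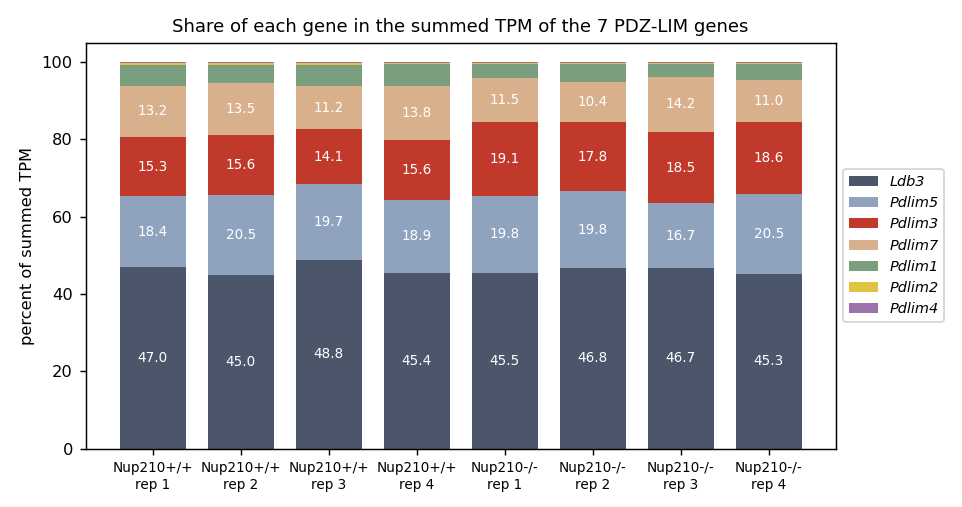
Percent of the summed TPM of the 7 PDZ-LIM genes taken by each gene, 1 bar per library, Nup210+/+ on the left and Nup210-/- on the right, with shares above 10% printed. The Pdlim3 segment is 14.1 to 15.6% in the Nup210+/+ bars and 17.8 to 19.1% in the Nup210-/- bars, while the Ldb3 segment is 45.0 to 48.8% throughout.

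The genes also varied among mice of one genotype. This variation enters the fit of the contrast that was known when the list was drawn up, so it too is given as a description. Relative to the mean of its own genotype on the log2 scale, Pdlim1 was lower by 0.14 in Nup210-/- replicate 1, by 0.29 in Nup210-/- replicate 3 and by 0.25 in Nup210+/+ replicate 2. Fhl1 was lower in the same 3 libraries, by 0.16, 0.18 and 0.18. In the other 5 libraries Pdlim1 deviated by -0.02 to 0.27 and Fhl1 by -0.01 to 0.23. Ldb3 was lower in the same 3 libraries by smaller amounts, 0.05, 0.07 and 0.11, and deviated by 0.03 to 0.06 in the other 5. These 3 libraries also had the lowest sums of 8 slow-fiber markers, 1120.15, 1136.72 and 1360.53 TPM, against 2011.64 to 2165.11 TPM in the other 5. The sums formed separate clusters, so no correlation is given. Of the 8 slow-fiber markers, 7 had lower estimates in Nup210-/- libraries and 0 passed the test or an unadjusted p of 0.05. Csrp3, a LIM gene of the Z-disc, and Ankrd2, a stretch-responsive gene, named after their values were seen, were also lowest in these 3 libraries, at 117.38 to 123.49 TPM and 118.71 to 126.32 TPM, against 166.56 to 205.32 TPM and 151.19 to 224.89 TPM in the other 5. In deposited TPM, Pdlim3 differed little between these libraries and the rest of their genotype. It was 393.75 and 390.34 TPM in the Nup210-/- libraries with low slow-fiber sums and 399.34 and 411.21 TPM in those with high sums. In Nup210+/+ replicate 2 it was 297.68 TPM, against 298.15 to 306.10 TPM in the other Nup210+/+ libraries. On the scaled log2 values, Pdlim3 deviated by 0.02 and -0.08 in Nup210-/- replicates 1 and 3 and by -0.02 in Nup210+/+ replicate 2. In the other 5 libraries it deviated by -0.13 to 0.13. In both genotypes the libraries with low sums were the lowest for Pdlim3 in deposited TPM, by a small margin. The part of fiber type in the Pdlim1, Fhl1 and Ldb3 values was not tested.

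**Figure D4:**
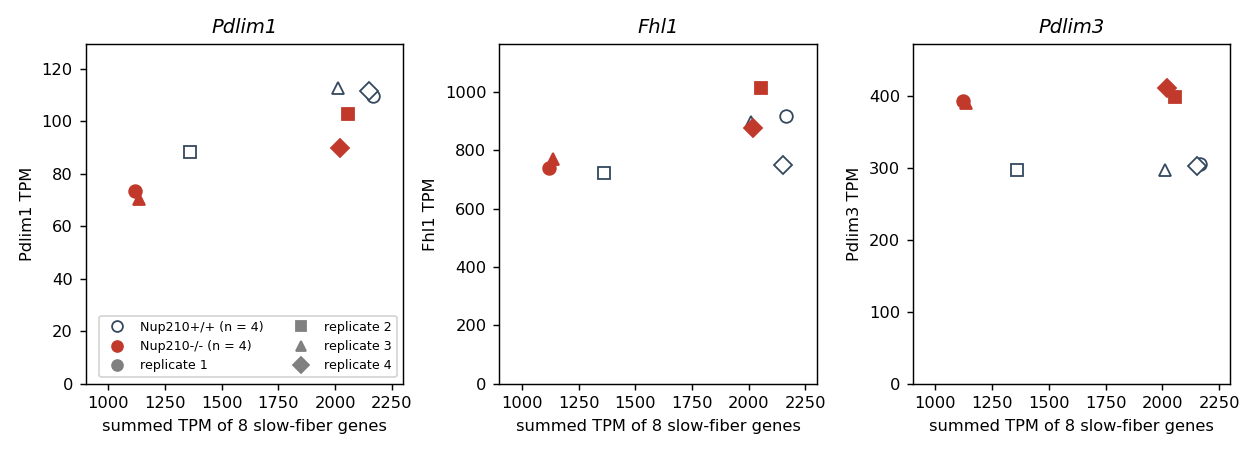
TPM of Pdlim1, Fhl1 and Pdlim3 against the summed TPM of 8 slow-fiber markers in the same library, Nup210+/+ open and Nup210-/- filled, 1 symbol shape per replicate number. Pdlim1 is 70.40 to 88.18 TPM in the 3 libraries with the lowest slow-fiber sums and 89.96 to 112.52 TPM in the other 5. Fhl1 overlaps, with 720.32 to 770.96 TPM in these 3 and 748.25 to 1011.86 TPM in the other 5, whereas Pdlim3 separates by genotype at both ends.

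Among the 6084 tested genes with a mean of at least 10 TPM, genes with profiles near to that of Pdlim3 were found by the Euclidean distance between log2 values over the 8 libraries, each gene centred on its own mean. Among the nearest were Gatsl2 (distance 0.158), Art1 (0.184), Dcaf4 (0.209) and Pip4k2b (0.224). Art1 codes for an ADP-ribosyltransferase of the muscle cell surface. Art1 was 266 ± 8.54 TPM in Nup210-/- and 212 ± 11.7 TPM in Nup210+/+ libraries (SD, n = 4 each). Of the other listed genes, Ldb3 was nearest to Pdlim3, at rank 374 (distance 0.486), followed by Pdlim5 at rank 583 (0.522) and Fhl3 at rank 959 (0.570). Pdlim1 was the farthest of those compared, at rank 5369 (1.148). The distance contains the genotype difference that chose the list, so these ranks are a description.

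Other LIM genes that muscle may express formed a list of 39, of which 37 were tested. This list and the related lists below were drawn up with earlier results of these data known. Their counts are therefore descriptions, and nothing is read from them beside the shares of all genes. Estimates were higher in Nup210-/- libraries for 13 and lower for 24, with a median log2 difference of -0.07, beside -0.01 for all genes. At a limma adjusted p of 0.05, 0 were higher and 1, Mical1, was lower, beside 0.112% of all genes. At an unadjusted p under 0.05 in limma there were 11, beside 14.2% of all genes. Mical1, a flavin monooxygenase with a LIM domain that disassembles actin filaments, was 1.94, 2.52, 2.19 and 1.76 TPM in Nup210-/- and 4.93, 5.17, 5.40 and 4.26 TPM in Nup210+/+ replicates 1 to 4. The groups did not overlap, with means of 2.10 TPM in Nup210-/- and 4.94 TPM in Nup210+/+ libraries. Mical1 fell by 0.87 on the log2 scale, which understates changes at such low levels (standard error 0.0966, limma adjusted p = 0.0490). This call was kept in 1 of the 8 fits that left out a library, the one without Nup210+/+ replicate 4, and lost in the other 7. Its exons on chromosome 10, from 41476314 to 41487032, overlap Smpd2 on the opposite strand, and whether the estimates used the strand is not stated, so reads of both genes may not have been told apart. The next lowest estimates were Limd2 (-0.54, limma adjusted p = 0.542) and Csrp2 (-0.53, limma adjusted p = 0.124), and the highest were Prickle3 (0.37, limma adjusted p = 0.364), Limk2 (0.26, limma adjusted p = 0.298) and Fblim1 (0.23, limma adjusted p = 0.513). The Limd2 estimate rested on Nup210+/+ replicate 2, where it was 11.64 TPM, and it was 1.86 to 3.10 TPM elsewhere, that being the library with the granulocyte precursor markers. Csrp2, a LIM-only protein of the CRP family, was 3.96 to 5.96 TPM in Nup210-/- and 6.86 to 10.26 TPM in Nup210+/+ libraries, without overlap.

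The Z-disc partners, genes of the alpha-actinins and of other proteins placed at or near the Z-disc, formed a list of 24, all tested. Estimates were higher for 16 and lower for 8, with a median log2 difference of 0.10. At a limma adjusted p of 0.05, 0 were higher and 1, Xirp1, was lower, beside 0.112% of all genes. At an unadjusted p under 0.05 in limma there were 7, beside 14.2% of all genes. Xirp1, which codes for the actin-binding repeat protein Xin, induced in damaged and remodelling muscle, was 66.53, 68.68, 68.49 and 61.57 TPM in Nup210-/- and 148.38, 110.46, 120.71 and 133.44 TPM in Nup210+/+ replicates 1 to 4. The groups did not overlap, and Xirp1 fell by 0.84 on the log2 scale (standard error 0.106, limma adjusted p = 0.0490), a call that was lost in all 8 fits that left out a library. The next lowest estimates were Nebl (-0.36, limma adjusted p = 0.743), at 4.25 TPM in Nup210+/+ replicate 2 and 0.10 to 0.59 TPM elsewhere, and Ankrd2 (-0.28, limma adjusted p = 0.499). The highest estimates were Ankrd1 (0.43, limma adjusted p = 0.361), Tcap (0.36, limma adjusted p = 0.121) and Myoz3 (0.34, limma adjusted p = 0.198). Tcap, telethonin, which caps titin at the Z-disc, was 2285.91 to 2471.11 TPM in Nup210-/- and 1742.23 to 2171.46 TPM in Nup210+/+ libraries. Myoz3, a calsarcin that binds alpha-actinin and Ldb3, was 58.54 to 67.68 TPM and 48.17 to 54.95 TPM. Neither overlapped between genotypes, and neither passed the test. The alpha-actinin genes of muscle, named after their values were seen, were Actn3, with 3619 ± 295 TPM in Nup210-/- and 3415 ± 243 TPM in Nup210+/+ libraries, and Actn2, with 376 ± 48.7 and 392.3 ± 62.1 TPM (SD, n = 4 each), and both overlapped between genotypes.

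Kinases, transcription factors and other proteins reported to bind a PDZ-LIM or FHL protein, called signalling partners here although a few, such as Tpm2, Mybpc1 and Mybpc2, belong to the sarcomere, formed a list of 24, of which 22 were tested, with 7 higher and 15 lower estimates and a median log2 difference of -0.08. None passed a limma adjusted p of 0.05, with 6 at an unadjusted p under 0.05, beside 14.2% of all genes. The lowest estimates were Prkd1 (-0.41), Pgm1 (-0.33) and Ptpn13 (-0.33), with limma adjusted p of 0.354, 0.645 and 0.406. In older mouse nomenclature the symbol Pgm1 stood for another phosphoglucomutase than in human, so its place in the list is uncertain. The highest were Prkcz (0.40, limma adjusted p = 0.526), Prkcq (0.39, limma adjusted p = 0.0540) and Prkca (0.35, limma adjusted p = 0.183), which all code for protein kinase C isoforms. The other protein kinase C genes of the list, Prkcb (-0.07), Prkcd (-0.33) and Prkce (-0.09), had lower estimates in Nup210-/- libraries, so the family did not move in 1 direction. Prkcq, protein kinase C theta, the main isoform of skeletal muscle, was 49.12, 52.35, 53.08 and 48.25 TPM in Nup210-/- and 40.54, 37.35, 45.43 and 40.94 TPM in Nup210+/+ replicates 1 to 4, without overlap. Among the 19 alternatives it passed the test only when libraries were weighted in limma.

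Of 8 genes for Mef2, Srf and the Srf cofactors, 6 were tested and 0 passed a limma adjusted p of 0.05, with 3 at an unadjusted p under 0.05, beside 14.2% of all genes. These 3 were Mef2d (log2 difference 0.27, standard error 0.0548, limma adjusted p = 0.111), Mef2c (0.21, standard error 0.0480, limma adjusted p = 0.126) and Mef2a (0.16, standard error 0.0497, limma adjusted p = 0.211). Mef2c was 239 ± 6.29 TPM in Nup210-/- and 220 ± 12.2 TPM in Nup210+/+ libraries (SD, n = 4 each). All 3 overlapped between genotypes in the deposited TPM and did not after scaling, a separation found for 9.38% of all genes tested. The other estimates were -0.01 for Srf, 0.09 for Mkl1 and -0.12 for Mkl2, with limma adjusted p of 0.974, 0.778 and 0.657. Mef2b and Myocd were below the filter.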

How the data were processed

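RNA-seq libraries from quadriceps of 4 Nup210-/- and 4 Nup210+/+ mice were analysed. According to the methods and the submitters' processing notes, polyadenylated RNA was read single-end from directional libraries, trimmed with cutadapt 2.3, aligned to mm10 with STAR 2.7.0d and quantified with RSEM 1.3.1. The authors deposited TPM per gene and library, without counts, so their count-based test could not be used. Depth is unknown and no 2 libraries shared the same TPM for more than 201 tested genes.

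TPM were divided by a median-of-ratios factor over 15225 genes above 0 in all libraries. Values of log2(scaled TPM + 1) for 14229 genes, those averaging 0.5 TPM or more, were fitted with limma 3.58.1 in R 4.3.3 (lmFit, eBayes with trend, genotype as the only term), with Benjamini-Hochberg adjustment and a threshold of 0.05. Fold changes on this scale understate those of low genes. The fit was tested on simulated data. Replicates are separate mice. The gene list, the related lists and the tests were chosen with earlier results of these data known. Named were the 9 genes, genes of each related list past the test or with its 3 lowest and 3 highest estimates, the regulators, and the 5 nearest to Pdlim3, of which 1 is not reported here. Of a symbol with 2 rows, the row with the higher mean was used. Coordinates are from GENCODE M21 (GRCm38) and promoters from RefSeq (GRCm38.p6). Alternatives were other pseudocounts, filters, scalings, variance models, library weights, a replicate block and leaving out each library.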

Additional observations from a re-analysis of the deposited data

Results flagged for a closer look

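The lowest or highest value of each of the 9 genes was compared with the rest of its genotype, in 18 groups of 4 libraries, and the gap to the next value was set against the whole range of the group. In 2 of the 18 groups it was wide enough to stand out at a 95% level, where chance would give about 1 in 20. Pdlim1 in Nup210+/+ replicate 2, at 88.18 TPM, was the lowest of its group, with a gap of 0.881 of the range. The same library had the lowest slow-fiber sum of the Nup210+/+ libraries, 1360.53 TPM, and the granulocyte precursor markers. Pdlim7 in Nup210-/- replicate 3, at 298.21 TPM, was the highest of its group, with a gap of 0.857 of the range, in the library with the highest fast-fiber sum, 115719 TPM. The part of these markers in either value was not tested.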

How the results depend on the processing

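The counts past the test depended on the settings. The count of the 9 genes, of the other LIM genes and of the Z-disc partners was 1 each and became 0 with every gene above 0 in any library, with a mean TPM of at least 0.1, with eBayes without trend and with the replicate block. The count of signalling partners was 0 and became 1, Prkcq, with library weights. When libraries were left out 1 at a time, the 9 genes and the other LIM genes had 0 to 1 past the test, and the Z-disc partners and signalling partners 0 to 0. Over all genes tested the count of 16 ran from 0 to 84, the highest with library weights, and from 0 to 10 with 1 library left out. Of 171 log2 differences of the 9 genes under 19 alternatives, 169 moved by less than the spread between mice, and the other 2, both with TPM as deposited, were Pdlim3 (0.40) and Ldb3 (0.10). The other filters, the variance models and the replicate block cannot change a log2 difference. Leaving out 1 of 4 mice can shift it only by less than this spread. The share of all these alternatives in the 169 was therefore fixed in advance and shows no stability. The sign of Pdlim7 changed in 2 alternatives. The replicate numbers are shared by different mice. Libraries of the same number did not deviate together (correlations of -0.03 to 0.09 over 4 pairs), so the replicate block is no paired result. Under the block Pdlim3 kept its log2 difference of 0.50, as it must when both genotypes hold the same replicate numbers. Why the counts moved was not tested. With 4 mice per genotype and unknown depth, differences larger than the spread between mice could also fail the test. Mef2c, for example, differed by 0.21 with a spread within genotypes of 0.038 on the log2 scale, and its limma adjusted p was 0.126. A gene that did not pass therefore need not differ by less than this spread.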
